A study of Mus musculus with 36 samples.

Results

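The comparison concerned immortalized dermal fibroblasts (iDFs) collected 30 min after the return of serum, in which cells from macroH2A double knockout (dKO) mice were set against cells from wild-type (WT) mice. It held the 4 libraries that the labels give as iDF at 30 min, 2 dKO and 2 WT, of the 36 samples in the series. The dKO animals lack both macroH2A genes in every cell, H2afy and H2afy2 (alleles Macroh2a1tm1Peh and Macroh2a2tm1.1Peh). The lines were made from the skin of tumour-free mice of the 129S strain and are labelled male. Both genotypes were grown to confluence in 10% serum, held in 0.5% serum for 24 h and then given 10% serum for 30 min. The starved state (0 min) was read from 2 dKO and 2 WT libraries of the same lines, and all 8 iDF libraries entered the fit. The study describes the libraries of a group as experimental replicates, without stating how many lines or animals stand behind each genotype. The p-values therefore measure the spread between these libraries, and a difference of genotype cannot be told apart from one between the lines of origin.

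MacroH2A histones are variants of H2A that carry a large macro domain beyond the histone fold, and they are found mostly on inactive chromatin, including the inactive X chromosome and silent developmental genes. Serum given to quiescent fibroblasts starts a wave of transcription that needs no new protein. Its first products are the immediate-early genes, switched on through the ternary complex factors and SRF (serum response factor) and through MAP kinases, and a group of chemokine and inhibitor genes that NF-κB switches on. NF-κB is held in the cytoplasm by IκB proteins until a signal has them degraded, and it then activates the gene of its own main inhibitor, Nfkbia, so that the signal is cut short. Dermal fibroblasts also keep a memory of their place in the body in the Hox genes that they express.

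Reads assigned to genes ranged from 22560402 to 30960463 in the 8 iDF libraries, and 15047 genes passed the filter on low counts. Levels are given as CPM, that is, counts scaled to a common library total with TMM factors, and differences as the log2 fold change of dKO over WT. The standard error (SE) beside it was derived from the edgeR test, as the absolute log2 fold change divided by the square root of the F statistic. A gene was called at an adjusted p below 0.05 (edgeR quasi-likelihood test, Benjamini-Hochberg adjustment over all genes tested) and an absolute log2 fold change above 0.75. Both targeted genes were lower in dKO cells, though transcript remained. H2afy2, which encodes macroH2A2, stood at 30.7 and 30.5 CPM in the dKO libraries at 30 min, against 47.1 and 45.6 CPM in the WT libraries. H2afy, which encodes macroH2A1, stood at 64.9 and 64.5 CPM in the dKO libraries, against 91.6 and 91.2 CPM in the WT libraries. The groups did not overlap for either gene, and the log2 fold changes of -0.599 ± 0.052 and -0.499 ± 0.048 (adjusted p = 4.81e-05 and 8.65e-05) did not reach the fold threshold. The sources used here do not give the deleted exons, so the residual reads do not check the labels by themselves. Of the tested genes within 5 Mb of H2afy (GRCm38, chr13:56073619-56136361) 3 of 76 were called (3.95%), and within 5 Mb of H2afy2 (chr10:61738665-61784147) 4 of 59 (6.78%), against 8.96% of all genes tested. In bulk RNA, fewer cells that express a gene and less of its RNA per cell cannot be told apart.

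Serum-stimulated dKO and WT iDFs differed at 1348 of the 15047 genes tested (8.96%). Of these, 584 (3.88%) were higher and 764 (5.08%) lower in dKO cells. The median absolute log2 fold change of the called genes was 1.46, and 140 of the higher and 275 of the lower genes lay beyond 2 log2 units. Most of these differences were there before serum. In starved cells 592 genes (3.93%) were higher and 769 (5.11%) lower in dKO cells (1361 genes, 9.04%), and 1089 genes were called the same way at both times, which is 80.8% of the calls at 30 min and 80% of those at 0 min. A further 259 genes were called at 30 min alone (119 higher, 140 lower) and 272 at 0 min alone, and no gene was called in opposite directions. The difference between the times was itself tested as the interaction of genotype and serum, that is, the dKO minus WT difference at 30 min less that at 0 min. It called 2 genes (0.0133%), Nfkbia and the pseudogene Gm2446, both with a signed difference that was larger at 30 min. Gm2446 had no counts in dKO libraries and had counts in WT libraries at 0 min, and its levels overlapped between the genotypes at 30 min. No gene was called in the other direction (edgeR), with 191 of the 364 genes at an unadjusted p below 0.05 lying on that side and 2 genes called there by DESeq2. The genes called at 1 time only are thus counts past a threshold and not a tested difference between the times.

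**Figure D1:**
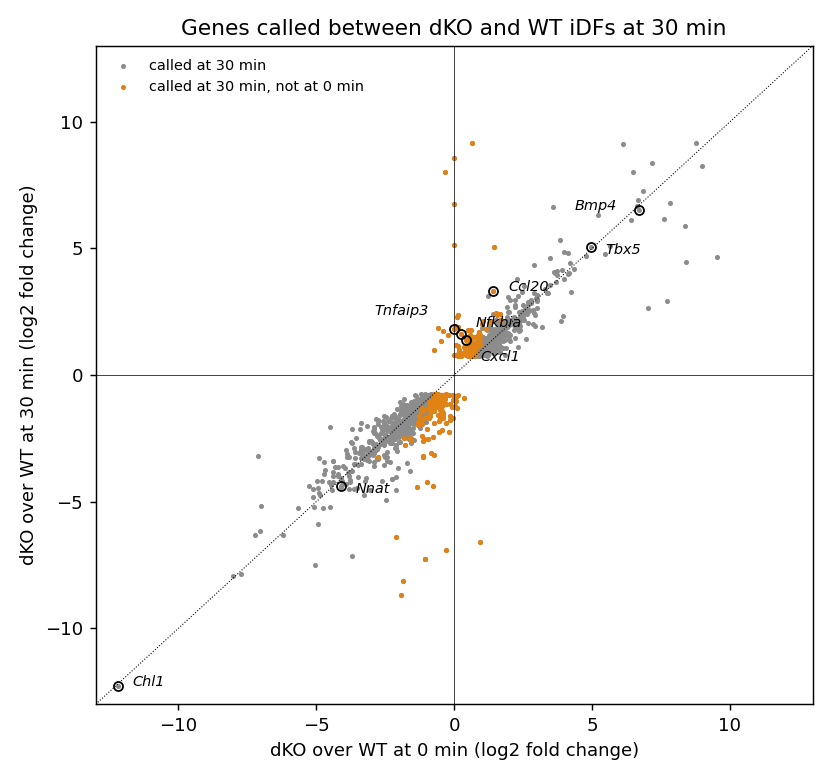
Log2 fold change of dKO over WT iDFs at 30 min of serum (y axis) against that at 0 min (x axis), for the 1348 genes called at 30 min. Grey points were called at both times and orange points at 30 min only (259 genes), and the dotted line marks equal differences, above which Nfkbia, Tnfaip3, Cxcl1 and Ccl20 sit.

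The NF-κB inhibitor genes Nfkbia and Tnfaip3 and the chemokine genes Cxcl1, Ccl20 and Ccl7 were called higher in dKO cells at 30 min and were not called at 0 min. The difference between the times passed the test for Nfkbia alone among these 5. Nfkbia encodes IκBα, the main inhibitor that NF-κB induces against itself. It stood at 304 and 308 CPM in the dKO libraries at 30 min, against 99.5 and 99.2 CPM in the WT libraries. At 0 min it stood at 18.99 and 19.3 CPM in dKO cells, against 15.7 and 16.8 CPM in WT cells. The dKO libraries were above both WT libraries at either time, narrowly before serum and by a wide margin after it. The log2 fold change was 1.62 ± 0.043 at 30 min (adjusted p = 8.33e-08), against 0.24 at 0 min (adjusted p = 0.00808, below the fold threshold). The differences at the 2 times differed by 1.38 log2 units (interaction, adjusted p = 0.000112).

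Tnfaip3 encodes A20, an enzyme that edits ubiquitin chains and shuts off signalling to NF-κB. It stood at 156 and 254 CPM in the dKO libraries at 30 min, against 44.9 and 72.1 CPM in the WT libraries, and at 4.65 and 4.36 CPM in dKO and 4.82 and 4.31 CPM in WT cells at 0 min. The groups overlapped before serum and were separate after it, with replicate 2 above replicate 1 in both genotypes at 30 min. The log2 fold change of 1.81 ± 0.33 passed the test (adjusted p = 0.0163), but not in a fit of the 4 libraries at 30 min alone (adjusted p = 0.089) nor without WT replicate 1 (log2 fold change 1.51, adjusted p = 0.0567). Its interaction of 1.83 log2 units did not pass (adjusted p = 1). Nfkbia and Tnfaip3 were the only calls among the 18 tested of 19 NF-κB subunits and inhibitors, of which 11.1% were thus higher, against 3.88% of all genes tested, and whose median log2 fold change was 0.148, against -0.00715 over all genes tested. Without dKO replicate 2 or WT replicate 1, 1 member was called lower. The 5 subunits were not called. Rela, for instance, which encodes the p65 subunit, stood at 165 and 204 CPM in dKO and 122 and 143 CPM in WT libraries (log2 fold change 0.48 ± 0.11, adjusted p = 0.0199, below the fold threshold).

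Of a list of 40 NF-κB target genes 32 were tested, of which 10 were higher and 4 lower in dKO cells (31.2% and 12.5%, against 3.88% and 5.08% of all genes tested), with a median log2 fold change of 0.413. Chemokine genes were among both the higher and the lower ones. Cxcl1 stood at 209.8 and 196 CPM in the dKO libraries, against 74.98 and 78.9 CPM in the WT libraries, and at 1.24 and 1.26 CPM in dKO and 1.04 and 0.802 CPM in WT cells before serum. Its log2 fold change was 1.399 ± 0.057 (adjusted p = 7.9e-07), and the interaction of 0.97 log2 units did not pass (adjusted p = 0.852). Ccl20, a ligand of CCR6, was a low gene at 6.104 and 7.998 CPM in dKO libraries, against 0.512 and 0.902 CPM in WT libraries (3.31 ± 0.36, adjusted p = 0.000176). Before serum it was near the floor, at 0.255 and 0.07198 CPM in dKO and 0.0746 and 0.0422 CPM in WT cells (1.43, adjusted p = 0.229). For both chemokines the dKO libraries at 30 min lay above the WT libraries. Ccl7, a monocyte attractant, stood at 195 and 242 CPM in dKO libraries, against 109 and 139 CPM in WT libraries (0.82 ± 0.18, adjusted p = 0.0207). The interactions of Ccl20 (1.88 log2 units, adjusted p = 1) and Ccl7 (0.67, adjusted p = 1) did not pass.

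Ccl2, the main attractant of monocytes, showed a difference of similar size with a wider spread. It stood at 381 and 570.1 CPM in the dKO libraries, against 182 and 286 CPM in the WT libraries. Both dKO libraries were above both WT libraries, and replicate 2 was above replicate 1 in each genotype. With a log2 fold change of 1.02 ± 0.29 it missed the threshold (adjusted p = 0.06). It passed with DESeq2 (adjusted p = 0.00519), with a length offset (0.0347), among protein-coding genes alone (0.0486) and with the replicate number as a block (0.0273). It did not pass with scaling to library size alone or with no low-count filter. Without WT replicate 2 the log2 fold change was 1.39. At 0 min Ccl2 stood at 34.59 and 34.48 CPM in dKO and 26.65 and 29.09 CPM in WT cells (0.31, adjusted p = 0.552). Its interaction of 0.71 log2 units did not pass. Il6, the gene of a cytokine that drives acute inflammation, went the other way at the edge of detection. It stood at 0.313 and 0.381 CPM in the dKO libraries, against 0.897 and 1.33 CPM in the WT libraries, a log2 fold change of -1.67 ± 0.45 (adjusted p = 0.0196). That call was lost with DESeq2 (adjusted p = 0.258) and with a length offset (0.0556), as well as without dKO replicate 1 (-1.53, adjusted p = 0.108), dKO replicate 2 (-1.82, 0.0754) or WT replicate 2 (-1.36, 0.142).

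The other higher members of the list were Tnfaip2, Ier3, Plau, Mmp3 and Mmp13, and the other lower ones were Icam1, Ccl5 and Cxcl5. Plau, the gene of the plasminogen activator urokinase, stood at 68.2 and 66.3 CPM in dKO libraries, against 31.98 and 32.0 CPM in WT libraries (1.07 ± 0.083, adjusted p = 2.57e-05). The collagenase gene Mmp13 stood at 1.995 and 1.74 CPM in dKO libraries, against 0.342 and 0.301 CPM in WT libraries (2.52 ± 0.34, adjusted p = 0.000588). Plau, Tnfaip2, Mmp3 and Mmp13 were called at 0 min too, whereas Nfkbia, Tnfaip3, Cxcl1, Ccl20, Ccl7 and Ier3 were called at 30 min alone. The count of 4 lower members fell to 0 without dKO replicate 1 or WT replicate 2, to 1 without dKO replicate 2 and to 2 without WT replicate 1. With DESeq2 14 members were higher and 1 was lower. Of 37 chemokine genes 15 were tested, 3 being higher and 4 lower (20% and 26.7%, against 3.88% and 5.08% of all genes). Cxcl16, which is also a scavenger receptor, was among the lower ones, at 1.06 and 1.57 CPM in dKO and 4.36 and 6.01 CPM in WT libraries (-1.98 ± 0.25, adjusted p = 0.000389). The 4 lower chemokines became 2 without any 1 of the 30 min libraries.

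**Figure D2:**
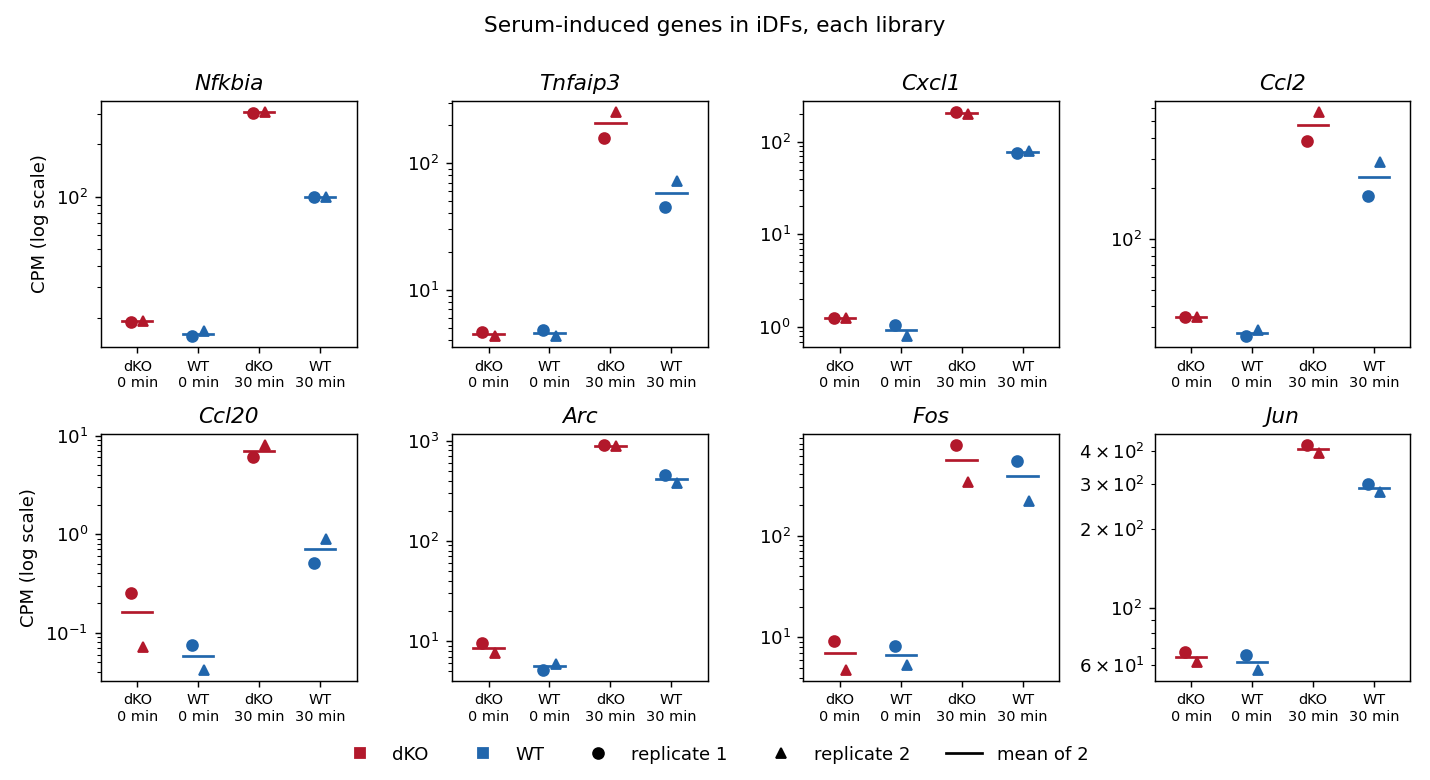
CPM (y axis, log scale) of 8 serum-induced genes in each of the 8 iDF libraries, by genotype and time (x axis), with circles for replicate 1, triangles for replicate 2 and a bar at the mean of the 2. Nfkbia, Tnfaip3, Cxcl1, Ccl2, Ccl20, Arc and Jun have both dKO libraries above both WT libraries at 30 min, while the Fos libraries of the 2 genotypes overlap.

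The sequences before the starts of 4 of these genes are shown because each holds a match to the κB motif, the site that NF-κB dimers bind. The motif was searched on both strands by its general 10-base form in the 300 bases of each promoter in the RefSeq table (GRCm38.p6, 250 bases before to 50 after the start), and matches may overlap one another. Of the 32851 promoters 8.46% held a match. Printed are the 250 bases before the start, in the direction of transcription, with the matches in capitals.
Nfkbia (chr12:55492648-55492897, minus strand): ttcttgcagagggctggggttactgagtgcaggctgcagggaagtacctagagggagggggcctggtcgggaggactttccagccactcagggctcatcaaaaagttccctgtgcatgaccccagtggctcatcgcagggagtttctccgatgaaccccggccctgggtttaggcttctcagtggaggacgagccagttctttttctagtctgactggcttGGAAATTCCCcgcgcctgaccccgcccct
Tnfaip3 (chr10:19015411-19015660, minus strand): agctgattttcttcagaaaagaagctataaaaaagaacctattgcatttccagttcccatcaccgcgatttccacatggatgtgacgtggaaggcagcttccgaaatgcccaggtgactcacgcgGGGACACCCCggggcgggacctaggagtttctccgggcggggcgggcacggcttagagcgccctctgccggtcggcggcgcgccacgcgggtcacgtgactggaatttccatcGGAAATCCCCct
Cxcl1 (chr5:90890995-90891244, plus strand): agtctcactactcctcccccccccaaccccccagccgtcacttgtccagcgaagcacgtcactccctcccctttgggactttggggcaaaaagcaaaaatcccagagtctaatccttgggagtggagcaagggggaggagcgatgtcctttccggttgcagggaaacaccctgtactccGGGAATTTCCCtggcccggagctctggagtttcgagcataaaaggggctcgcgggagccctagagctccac
Ccl20 (chr1:83116516-83116765, plus strand): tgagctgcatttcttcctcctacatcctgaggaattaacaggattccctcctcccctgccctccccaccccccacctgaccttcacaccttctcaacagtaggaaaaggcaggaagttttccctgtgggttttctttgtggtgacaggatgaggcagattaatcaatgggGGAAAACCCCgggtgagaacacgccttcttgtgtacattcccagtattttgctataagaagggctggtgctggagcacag
The match began 29 bases before the start in Nfkbia and 80 bases before it in Ccl20. Cxcl1 held 2 overlapping matches that began 71 and 70 bases before the start, and Tnfaip3 held 2 that began 125 and 12 bases before it. The table gives Tnfaip3 a second start, whose promoter (chr10:19011914-19012213) held no match. Genes that were not higher in dKO cells held the motif too. Of the NF-κB target list 6 of the 8 higher genes with a promoter in the table held a match, and 14 of the 22 tested members did. It occurred in 12.5% of all tested genes with a promoter (1311 of 10522), in 15.1% of the genes higher and 15.6% of those lower at 30 min, and in 17 of 77 genes (22.1%) that were higher at 30 min and not called at 0 min. The AP-1 motif (TGANTCA, both strands) was found in 7.43% of the higher and 7.03% of the lower genes with a promoter, against 5.88% of all tested genes with one. The CArG box of SRF was found in 3.47% of the higher and 1.95% of the lower genes, against 1.67%. A match describes letters in this window and does not say that a factor was bound.

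Most immediate-early transcription factor genes had higher values in dKO cells after serum, though only 1 was called (2.63%, against 3.88% of all genes called higher). All 38 immediate-early transcription factors of a list were tested, each had a higher fitted level at 30 min than at 0 min in both genotypes, and 33 had a log2 fold change above 0 (median 0.458). In 20 of them both dKO libraries were above both WT libraries, which was so for 31.6% of all genes. At 0 min the median log2 fold change was 0.109, and 2 of the 38 were called higher, against 3.93% of all genes. The median log2 fold change with serum was 2.013 in dKO cells and 2.205 in WT cells. The rise with serum passed the same thresholds for 32 members in dKO cells and 22 in WT cells. These are counts past a threshold, for which the share over all genes was not worked out. No member was called by the interaction test. The only member called at 30 min was Atf3, the gene of a stress-induced repressor. It stood at 228 and 211 CPM in dKO libraries, against 126 and 101 CPM in WT libraries (0.95 ± 0.1, adjusted p = 0.00041). Atf3 was called higher at 0 min too, at 8.57 and 8.93 CPM in dKO and 4.44 and 5.24 CPM in WT cells (0.86, adjusted p = 0.00576). Its interaction of 0.093 log2 units did not pass. The AP-1 subunit gene Jun stood at 422 and 392 CPM in dKO libraries, against 299 and 277 CPM in WT libraries. The groups did not overlap, and the log2 fold change of 0.498 ± 0.072 (adjusted p = 0.00109) stayed below the fold threshold. Fos, its partner, stood at 771 and 332 CPM in dKO libraries, against 542 and 220.3 CPM in WT libraries. Replicate 1 was the higher one in both genotypes, the groups overlapped, and the test was not passed (0.53 ± 0.64, adjusted p = 0.588, and -0.20 without dKO replicate 1). Within each replicate number the dKO library was the higher one, and with the replicate number as a block the Fos log2 fold change at 30 min was 0.55 (adjusted p = 0.0156), still below the fold threshold. Fosl2, which encodes FRA2, stood at 607 and 942 CPM in dKO libraries, against 379 and 559 CPM in WT libraries, and did not pass either (0.72 ± 0.29, adjusted p = 0.135). The prostaglandin synthase gene Ptgs2 stood at 154 and 161 CPM in dKO libraries, against 171 and 219 CPM in WT libraries (-0.31 ± 0.15, adjusted p = 0.176).

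The replicates of this gene group moved together across the genotypes. Over the 68 genes of both immediate-early lists, replicate 2 exceeded replicate 1 in both genotypes for 46 genes, replicate 1 exceeded replicate 2 in both for 20, and the genotypes disagreed for 2. The genotypes thus gave the same order for 97.1% of these genes, against 61.8% of all genes tested. The median absolute log2 ratio of CPM + 0.5 between replicates was 0.414 in dKO and 0.375 in WT cells for the 68 genes, against 0.108 and 0.0958 for all genes. The labels give the replicate numbers no shared day or batch. The 1 transcription factor called higher became 4 with the replicate number as a block, 3 with DESeq2 and 3 without dKO replicate 1, where 1 was also called lower, and 2 without any 1 of the 4 libraries at 0 min.

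Immediate-early genes with other functions included several calls. Of 30 such genes, all tested, 9 were called, all of them higher (30.0%, against 3.88% of all genes), with a median log2 fold change of 0.314. They included Pmaip1, Arc, Rhob, Edn1, Pim1, Ier3, Btg2 and Rgs2. At 0 min the median log2 fold change of the 30 genes was 0.254 and 4 were called higher, against 3.93% of all genes. Of the 9 genes called at 30 min, 6 were not called at 0 min. Arc, known as a regulator of synapses and an immediate-early gene in many cells, stood at 903 and 888 CPM in dKO libraries, against 451 and 383 CPM in WT libraries (1.103 ± 0.098, adjusted p = 0.000267). Before serum Arc stood at 9.52 and 7.59 CPM in dKO and 5.19 and 5.95 CPM in WT cells, and its interaction of 0.47 log2 units did not pass. Pmaip1, which encodes the cell death factor NOXA, stood at 126 and 119 CPM in dKO libraries, against 56.1 and 55.7 CPM in WT libraries (1.13 ± 0.062, adjusted p = 3.91e-06). It was higher by about as much before serum, at 31.4 and 27.9 CPM in dKO and 13.5 and 12.8 CPM in WT cells. Edn1, the gene of the vasoconstrictor endothelin, stood at 143 and 106 CPM in dKO libraries, against 32.3 and 24.4 CPM in WT libraries (2.13 ± 0.24, adjusted p = 0.00242). Rgs2, a brake on G protein signalling, was the 1 member with a lower fitted level at 30 min than at 0 min in both genotypes. It stood at 7.28 and 4.66 CPM in dKO libraries, against 4.01 and 2.84 CPM in WT libraries at 30 min, and at 20.8 and 24.4 CPM in dKO and 5.94 and 6.71 CPM in WT cells at 0 min. The count of 9 became 5 with scaling to library size alone. Btg2, an antiproliferative gene, lost its call without any 1 of the 30 min libraries (log2 fold change 0.64 to 0.91, adjusted p = 0.0591 to 0.135), and Rhob, the gene of a small GTPase, lost it without dKO replicate 1 (0.67, below the fold threshold).

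Feedback inhibitors of MAP kinase signalling were mostly not called, with 2 of 17 higher, Dusp8 and Spry4 (11.8%, against 3.88% of all genes). Spry4 lost its call with the replicate number as a block (adjusted p = 0.0586), in a fit of the 30 min libraries alone (0.0634), with no low-count filter (0.0576), and without any 1 of the 30 min libraries or either WT library at 0 min (0.0532 to 0.123). Dusp8, a phosphatase of the JNK and p38 kinases, stood at 48.6 and 53.6 CPM in dKO libraries, against 21.4 and 24.6 CPM in WT libraries (1.15 ± 0.19, adjusted p = 0.00442). Dusp8 was called higher at 0 min too (0.755, adjusted p = 0.047), and its interaction did not pass. The median log2 fold change of the 17 genes was 0.229 at 30 min and 0.226 at 0 min. Cytoskeletal targets of SRF lay mostly above 0, before serum as well as after it. Of 25 tested genes 6 were called, all of them higher (24.0%), 23 lay above 0, and the median log2 fold change was 0.547, against 0.671 in starved cells, where 7 were higher. Myl9, a regulatory light chain of myosin, stood at 335 and 328 CPM in dKO libraries, against 159 and 176 CPM in WT libraries (0.98 ± 0.073, adjusted p = 3.23e-05). Fhl1, a LIM-domain protein of muscle and stress fibres, stood at 256 and 284 CPM in dKO libraries, against 117 and 140.4 CPM in WT libraries (1.07 ± 0.094, adjusted p = 0.000181). The 6 became 3 without WT replicate 1. None of the 25 had an interaction at an unadjusted p below 0.05, which only 364 of all 15047 genes tested had. Of 17 heat shock genes 1 was called, higher (5.88%, against 3.88% of all genes). It was Hspa1b, the gene of an inducible HSP70, at 259 and 286 CPM in dKO libraries, against 138 and 150 CPM in WT libraries (0.92 ± 0.075, adjusted p = 5.12e-05). Its reads may be shared with the near-identical Hspa1a.

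The genes with the largest differences were called in starved cells too, except for Asxl3. Among the 12 protein-coding genes with the largest rise at an average of 3 or more on the log2 CPM scale were regulators of patterning and signalling. Bmp4, a morphogen of skin and limb, stood at 31.9 and 27.97 CPM in dKO libraries, against 0.512 and 0.129 CPM in WT libraries (6.52 ± 0.25, adjusted p = 9.81e-07). Tbx5, the transcription factor that specifies the forelimb, stood at 28.2 and 19.3 CPM in dKO libraries, against 0.897 and 0.515 CPM in WT libraries (5.06 ± 0.32, adjusted p = 4.09e-05). Both genes were near 0 in the WT lines and clearly expressed in both dKO libraries. Alkal1, a ligand of the receptor tyrosine kinases ALK and LTK, stood at 41.4 and 47.8 CPM in dKO libraries, against 2.43 and 3.01 CPM in WT libraries (4.03 ± 0.14, adjusted p = 3.54e-07). Trim9 (a ubiquitin ligase best known in neurons), Chodl, Lmcd1, Cemip (a hyaluronan-degrading protein), Megf6, Hoxa7, Adcyap1r1 (the PACAP receptor) and Pcdhga8 were also among the 12, with log2 fold changes of 3.23 to 4.84. Pcdhga8 shares its last exons with the other genes of its cluster, and its counts are uncertain.

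The 12 genes with the largest fall held secreted and matrix proteins. Chl1, a neural cell adhesion molecule, had no counts in any of the 4 dKO iDF libraries, before or after serum, and stood at 21.9 and 26.03 CPM in WT libraries at 30 min. Against a floor of 3 counts in a library it was at least 189-fold lower in dKO cells. Secreted proteins with low but measurable levels in dKO cells came next. Hgf, the ligand of the MET receptor and a typical product of mesenchymal cells, stood at 1.06 and 0.635 CPM in dKO libraries, against 17.4 and 14.99 CPM in WT libraries (-4.24 ± 0.26, adjusted p = 1.09e-05). Apoe, a lipid carrier, stood at 2.7 and 3.597 CPM in dKO libraries, against 34.3 and 38.9 CPM in WT libraries (-3.54 ± 0.15, adjusted p = 8.56e-07). None of these groups overlapped, and all 3 genes were called at 0 min as well. Others were Nnat, Col15a1, Nrk, Pcdhga12, Slc38a4, Pdpn (podoplanin), C1qtnf3 and Asxl3, with log2 fold changes of -4.37 to -2.82. Asxl3, a chromatin regulator, stood at 1.06 and 0 CPM in dKO libraries, against 11.5 and 9.15 CPM in WT libraries. Its call was lost without WT replicate 1 (-4.05, adjusted p = 0.0808), without WT replicate 2 (-4.39, 0.0608) and in a fit of the 30 min libraries alone (-4.24, 0.063).

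Hox genes, which record position along the body and the limb, differed in both directions. Of 39 Hox genes 34 were tested, of which 11 were higher and 6 lower in dKO cells (32.4% and 17.6%, against 3.88% and 5.08% of all genes). Of 11 tested genes of the HoxA cluster on chromosome 6, 10 were called, all of them higher, and the median log2 fold change was 1.86. Hoxa7 stood at 18.1 and 17.5 CPM in dKO libraries, against 2.01 and 1.72 CPM in WT libraries (3.25 ± 0.14, adjusted p = 1.02e-06). Hoxa13, at the distal end of the cluster, stood at 9.59 and 9.27 CPM in dKO libraries, against 0.171 and 0.687 CPM in WT libraries (4.44 ± 0.35, adjusted p = 3.62e-05). Hoxa10 stood at 30.3 and 27.6 CPM in dKO libraries, against 15.2 and 17.6 CPM in WT libraries (0.82 ± 0.087, adjusted p = 0.000153). For each of these 3 genes both dKO libraries were above both WT libraries. Hoxa9 was the 1 member not called at 30 min (0.58 ± 0.15, adjusted p = 0.0197, below the fold threshold), though it was called at 0 min. Evx1, a homeobox gene next to Hoxa13, had no counts in the 4 WT libraries and stood at 1.56 and 1.69 CPM in dKO libraries, at least 12.7-fold above a floor of 3 counts in a library. Evx1 and Hoxa9, Hoxa10 and Hoxa13 were chosen after their values were seen.

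In the HoxC cluster on chromosome 15 the direction changed along the cluster. Hoxc8 was higher in dKO cells, at 75.2 and 79.8 CPM, against 34.97 and 35.2 CPM in WT libraries (1.14 ± 0.066, adjusted p = 5.22e-06). Hoxc10 was lower in dKO cells, at 9.74 and 8.42 CPM, against 46.5 and 48.9 CPM in WT libraries (-2.39 ± 0.079, adjusted p = 2.84e-07). Hoxc11, Hoxc12 and Hoxc13 were lower too (-2.17, -2.26 and -0.95), which made 1 higher, 4 lower and 4 not called of 9, with a median log2 fold change of 0.32. The HoxB cluster on chromosome 11 held 1 lower gene of 9 (Hoxb7) and the HoxD cluster on chromosome 2 held 1 of 5 (Hoxd1). Without any 1 library 10 or 11 Hox genes were higher and 4 to 6 lower. Of 36 tested limb and positional factors 6 were higher and 5 lower (16.7% and 13.9%, against 3.88% and 5.08% of all genes). Foxc2, a forkhead factor of mesenchyme, stood at 9.16 and 6.43 CPM in dKO libraries, against 0.555 and 0.386 CPM in WT libraries (4.04 ± 0.26, adjusted p = 9.54e-06). Shox2, a homeobox factor of the proximal limb, stood at 179 and 191 CPM in dKO libraries, against 76.4 and 82.7 CPM in WT libraries (1.22 ± 0.09, adjusted p = 5.56e-05). Emx2, a homeobox factor of the shoulder girdle and the brain, stood at 14.4 and 12.5 CPM in dKO libraries, against 32.9 and 27.4 CPM in WT libraries (-1.16 ± 0.11, adjusted p = 9.27e-05). The skin site behind each line was not stated, and its part in these differences was not tested.

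**Figure D3:**
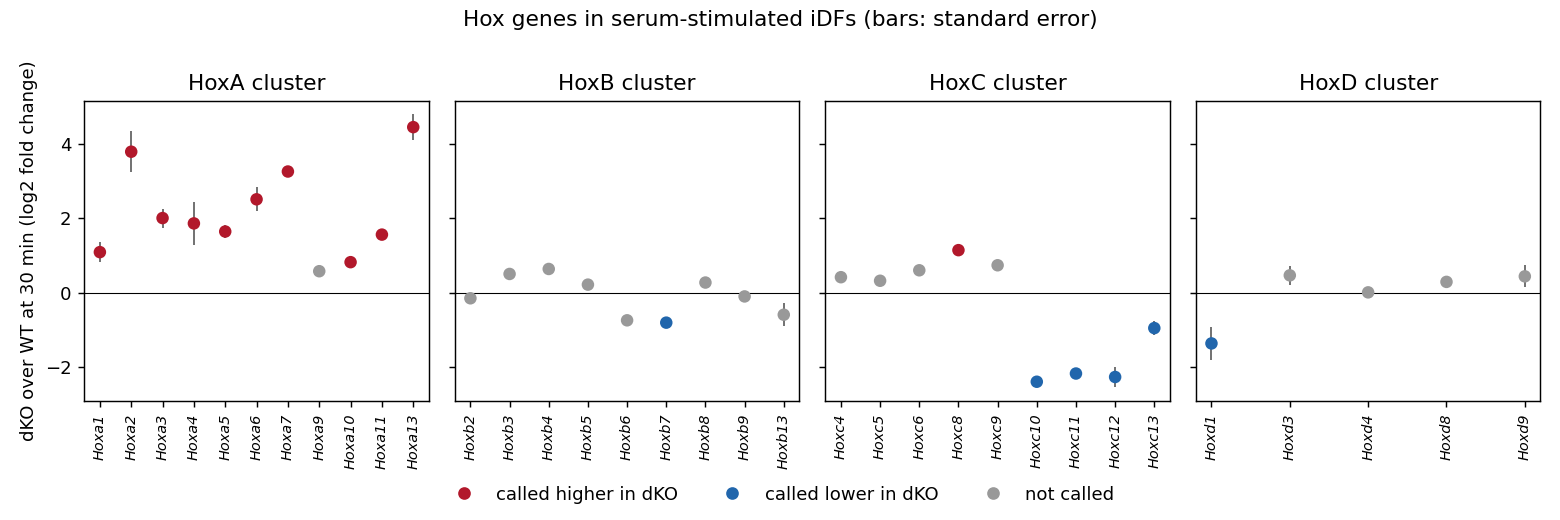
Log2 fold change of dKO over WT iDFs at 30 min (y axis) for the 34 tested Hox genes in order of gene number (x axis), in 1 panel per cluster, with bars of 1 SE. Red points were called higher in dKO cells (10 of 11 in HoxA), blue points lower (4 of 9 in HoxC), and grey points were not called.

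Imprinted genes, of which only the copy from one parent is active, were called in a single direction. Of 45 such genes 39 were tested, of which none was higher and 15 were lower in dKO cells (38.5%, against 5.08% lower among all genes), with a median log2 fold change of -0.55. The median was -0.30 and 17 genes were lower in starved cells. No member was called higher with edgeR or with DESeq2, and 2 were higher at an unadjusted p below 0.05. Nnat, which encodes the membrane protein neuronatin, stood at 0.8999 and 1.35 CPM in dKO libraries, against 20.3 and 26.4 CPM in WT libraries (-4.37 ± 0.31, adjusted p = 8.03e-05). Slc38a4, an amino acid transporter, stood at 12.3 and 11.3 CPM in dKO libraries, against 91.8 and 96.7 CPM in WT libraries (-2.997 ± 0.065, adjusted p = 3.55e-08). Mest, the gene of a hydrolase of mesoderm, stood at 89.9 and 90.9 CPM in dKO libraries, against 295 and 318 CPM in WT libraries (-1.76 ± 0.092, adjusted p = 1.55e-05). The 2 dKO libraries lay below both WT libraries for all 3 genes. Ndn, the gene of the growth suppressor necdin, stood at 18.98 and 20.7 CPM in dKO libraries, against 44.2 and 42.95 CPM in WT libraries (-1.14 ± 0.064, adjusted p = 4.48e-06).

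The lower imprinted genes included both growth-promoting and growth-restraining members. Igf2, a fetal growth factor, stood at 25.5 and 31.02 CPM in dKO libraries, against 76.6 and 78.6 CPM in WT libraries (-1.46 ± 0.12, adjusted p = 0.000136). Cdkn1c, which encodes the cell cycle inhibitor p57, stood at 38.4 and 43.6 CPM in dKO libraries, against 115 and 125 CPM in WT libraries (-1.55 ± 0.11, adjusted p = 6.19e-05). Both parental classes of 1 locus were lower on chromosome 12. There Dlk1, active on the paternal copy, stood at 4.58 and 5.25 CPM in dKO libraries, against 12.8 and 12.9 CPM in WT libraries (-1.39 ± 0.12, adjusted p = 5.23e-05). Meg3, the maternally active non-coding RNA beside it, stood at 66.4 and 72.3 CPM in dKO libraries, against 147 and 190.3 CPM in WT libraries (-1.28 ± 0.15, adjusted p = 0.0016). H19, the maternally active partner of Igf2, did not differ detectably, at 155 and 196 CPM in dKO libraries, against 127 and 171 CPM in WT libraries (0.24 ± 0.29, adjusted p = 0.6). Peg3, Igf2r, Grb10 and Gnas were not called either. Meg3, H19 and these 4 were chosen after their values were seen. The count of 15 was 13 to 15 when any 1 library was left out.

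**Figure D4:**
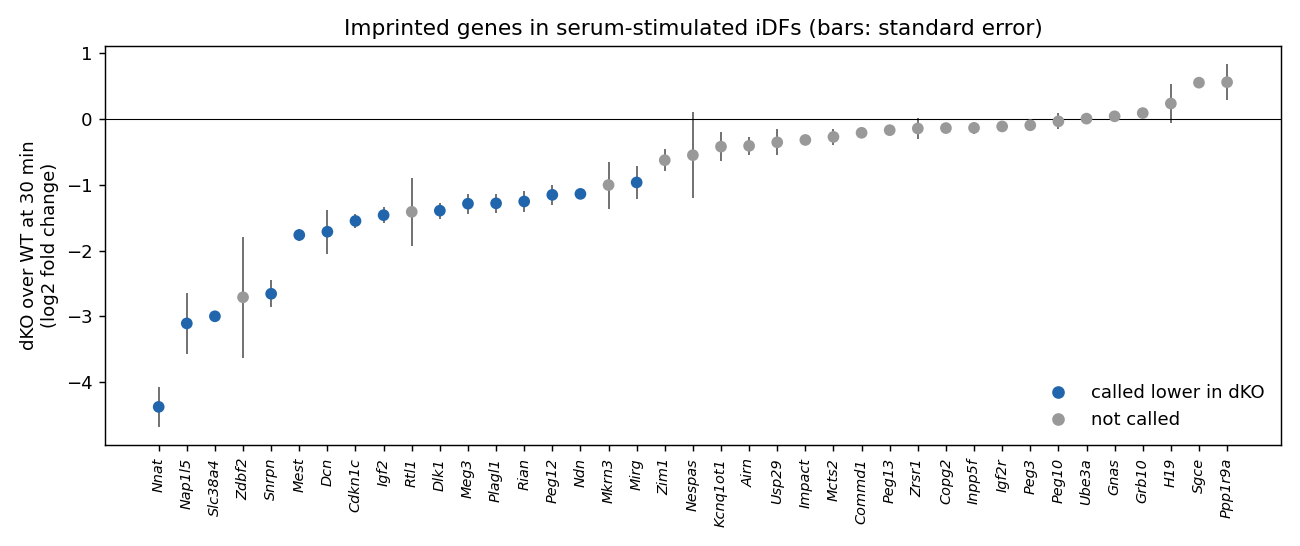
Log2 fold change of dKO over WT iDFs at 30 min (y axis) for the 39 tested imprinted genes, ordered by that value (x axis), with bars of 1 SE. The 15 blue points were called lower in dKO cells, and no gene was called higher.

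Genes of the extracellular matrix, the main product of dermal fibroblasts, differed in both directions. Of 34 tested collagen genes 5 were higher and 11 lower in dKO cells (14.7% and 32.4%, against 3.88% and 5.08% of all genes). The chains of the basement membrane collagen, Col4a1 and Col4a2, were among the lower ones. Col4a1 stood at 211 and 222 CPM in dKO libraries, against 663 and 641 CPM in WT libraries (-1.59 ± 0.056, adjusted p = 3.64e-07). Col11a1, a chain of a cartilage-type fibril collagen, stood at 167 and 173 CPM in dKO libraries, against 1046 and 998 CPM in WT libraries (-2.59 ± 0.045, adjusted p = 9.48e-09). Col12a1, a collagen that coats fibrils, was higher, at 3496 and 3623 CPM in dKO libraries, against 1910 and 2083 CPM in WT libraries (0.83 ± 0.048, adjusted p = 5.41e-06), with 0.74 on scaling to library size alone, which is below the fold threshold. Col1a1, a chain of the main fibril collagen of skin, showed no detectable difference, with a log2 fold change of 0.01 ± 0.039 (adjusted p = 0.896). Of 24 basement membrane genes, which share some collagens with that list, 2 were higher and 7 lower (8.33% and 29.2%), the 2 becoming 1 without WT replicate 1. Lama2, a laminin chain, stood at 41.9 and 46.1 CPM in dKO libraries, against 130.4 and 137 CPM in WT libraries (-1.604 ± 0.072, adjusted p = 1.3e-06).

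Matricellular and myofibroblast genes went both ways, with 7 higher and 6 lower of 31 (22.6% and 19.4%, against 3.88% and 5.08% of all genes), the 7 becoming 4 without dKO replicate 1. Postn, the gene of periostin, stood at 2546 and 2382 CPM in dKO libraries, against 6787 and 6834 CPM in WT libraries (-1.47 ± 0.045, adjusted p = 1.68e-07). Eln, the gene of elastin, stood at 5.67 and 5.97 CPM in dKO libraries, against 29.9 and 29.6 CPM in WT libraries (-2.35 ± 0.14, adjusted p = 5.91e-06). Fbln5, an elastic fibre assembly factor, was higher, at 817 and 767 CPM in dKO libraries, against 417 and 407 CPM in WT libraries (0.94 ± 0.053, adjusted p = 4.56e-06). Elastin and one of its assembly factors thus differed in opposite directions. Fbln1, a related fibulin, stood at 191 and 233 CPM in dKO libraries, against 298 and 325 CPM in WT libraries, and its log2 fold change of -0.56 ± 0.13 (adjusted p = 0.0205) stayed below the fold threshold. Lrrc15, a marker of TGFβ-driven myofibroblasts, stood at 147 and 132 CPM in dKO libraries, against 79.5 and 78.6 CPM in WT libraries (0.82 ± 0.1, adjusted p = 0.00108). It dropped below the fold threshold on scaling to library size alone (0.733) and without dKO replicate 1 (0.746). Of 37 matrix proteases and their inhibitors 5 were higher and 6 lower (13.5% and 16.2%), the 6 becoming 3 without WT replicate 1. Of 20 integrin genes 3 were higher and 2 lower (15% and 10%), the 2 becoming 0 without WT replicate 2 and 1 without either dKO replicate. Adamtsl3, a matrix protein related to these proteases, stood at 76.8 and 83.4 CPM in dKO libraries, against 21.2 and 21.1 CPM in WT libraries (1.92 ± 0.07, adjusted p = 3.92e-07). Itga4, an integrin subunit that binds fibronectin and VCAM1, stood at 36.8 and 31.95 CPM in dKO libraries, against 17.1 and 17.6 CPM in WT libraries (0.99 ± 0.084, adjusted p = 4.09e-05).

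Genes of secreted growth signals differed in several families, and the Wnt family had more members higher than lower. Of 40 Wnt ligands, Frizzled receptors and modulators 11 were higher and 3 lower (27.5% and 7.50%, against 3.88% and 5.08% of all genes). Wnt5a, a ligand of the non-canonical pathway, stood at 235 and 217 CPM in dKO libraries, against 57.5 and 58.1 CPM in WT libraries (1.97 ± 0.052, adjusted p = 8.1e-08). Rspo2, which amplifies Wnt signals by way of LGR receptors, stood at 65.6 and 67.5 CPM in dKO libraries, against 16.5 and 15.8 CPM in WT libraries (2.05 ± 0.085, adjusted p = 8.26e-07). Sfrp2, a secreted Wnt modulator, was higher too (1.81 ± 0.078, adjusted p = 9.79e-07), and the receptor gene Fzd1 was lower, at 81.5 and 74.3 CPM in dKO libraries, against 142 and 133 CPM in WT libraries (-0.82 ± 0.059, adjusted p = 1.79e-05).

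Of 49 genes of BMP, activin and TGFβ signalling 6 were higher and 9 lower (12.2% and 18.4%, against 3.88% and 5.08% of all genes), the 9 becoming 5 with DESeq2, with a length offset and without dKO replicate 1. Grem1, the gene of a BMP antagonist, stood at 20.7 and 24.3 CPM in dKO libraries, against 4.36 and 5.63 CPM in WT libraries (2.17 ± 0.13, adjusted p = 7.06e-06). Inhbb, the gene of an activin subunit, was higher (2.26 ± 0.14, adjusted p = 7.83e-06), as was Tgfb3, a TGFβ ligand (2.17 ± 0.099, adjusted p = 1.01e-05). In the IGF axis the binding protein genes went both ways. Of 18 genes of the axis 4 were higher and 3 lower (22.2% and 16.7%). Igfbp4, a binding protein that restrains IGF, stood at 46.99 and 48.5 CPM in dKO libraries, against 17.8 and 17.9 CPM in WT libraries (1.42 ± 0.061, adjusted p = 9.79e-07). Igfbp3, another of these binding proteins, stood at 0.352 and 0.296 CPM in dKO libraries, against 3.67 and 2.58 CPM in WT libraries (-3.25 ± 0.35, adjusted p = 0.000172). Neither gene's groups overlapped. Of 25 FGF and PDGF family genes and receptors 3 were higher and 3 lower (12% each), with Pdgfc higher (0.93 ± 0.064, adjusted p = 1.39e-05) and Kitl, the ligand of KIT on melanocytes and mast cells, lower at 28.99 and 30.7 CPM in dKO libraries, against 63.1 and 60.9 CPM in WT libraries (-1.05 ± 0.092, adjusted p = 6.53e-05).

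Receptors and guidance molecules followed. Of 14 IL-6 family genes and receptors 2 were higher and 3 lower (14.3% and 21.4%, against 3.88% and 5.08% of all genes), with the receptor genes Osmr at 167 and 174 CPM in dKO libraries, against 94.5 and 95.9 CPM in WT libraries (0.84 ± 0.054, adjusted p = 8.69e-06), and Il6ra at 11.6 and 11.3 CPM in dKO libraries, against 20.2 and 22.1 CPM in WT libraries (-0.88 ± 0.087, adjusted p = 9.7e-05). The Osmr value was 0.748 on scaling to library size alone, just below the threshold. Il1rn, the gene of the antagonist of the IL-1 receptor, stood at 3.72 and 4.19 CPM in dKO libraries, against 0.128 and 0.172 CPM in WT libraries (4.68 ± 0.3, adjusted p = 2.09e-05). The difference was there in starved cells, where both WT libraries had no counts and the dKO libraries 3.73 and 3.53 CPM. Of 56 tested axon guidance genes 7 were higher and 4 lower (12.5% and 7.14%), the 4 becoming 2 with DESeq2 and without dKO replicate 2. Plxnc1, a semaphorin receptor, stood at 65.6 and 79.3 CPM in dKO libraries, against 13.8 and 12.8 CPM in WT libraries (2.45 ± 0.1, adjusted p = 1.3e-06), and its ligand gene Sema7a stood at 1.29 and 1.396 CPM in dKO libraries, against 5.89 and 5.41 CPM in WT libraries (-2.07 ± 0.19, adjusted p = 5.82e-05). Tnfrsf11b, the gene of the RANKL decoy osteoprotegerin, was higher among 25 genes of the TNF and TNF receptor superfamily, of which 3 were higher and 3 lower, 12% each (1.71 ± 0.12, adjusted p = 1.79e-05). The 3 lower genes became 5 without dKO replicate 1.

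Interferon-stimulated genes were called lower in dKO cells or not at all. Of 55 tested none was higher and 6 were lower (10.9%, against 5.08% of all genes), 40 lay below 0, and the median log2 fold change was -0.215. With DESeq2 1 was higher, without WT replicate 2 likewise 1, and 4 were higher at an unadjusted p below 0.05 with edgeR. Gbp9, a guanylate-binding protein, stood at 2.895 and 3.09 CPM in dKO libraries, against 16.8 and 17.9 CPM in WT libraries (-2.53 ± 0.16, adjusted p = 8.29e-06). Oasl1, an antiviral factor, stood at 2.04 and 1.23 CPM in dKO libraries, against 10.4 and 11.6 CPM in WT libraries (-2.74 ± 0.26, adjusted p = 9.93e-05). The 6 became 3 without dKO replicate 1 or WT replicate 1. Of 13 MHC class I genes 3 were lower (23.1%), H2-Q4, H2-Q6 and H2-Q7, which are near copies of one another, so that the split of reads among them is uncertain. H2-Q4 fell short of the fold threshold without dKO replicate 1 (-0.67) or WT replicate 2 (-0.73). Of 14 complement genes 2 were higher and 4 lower (14.3% and 28.6%, against 3.88% and 5.08% of all genes). C4b, a component of the classical pathway, stood at 0.196 and 0.592 CPM in dKO libraries, against 4.398 and 4.98 CPM in WT libraries (-3.58 ± 0.36, adjusted p = 0.000104). Serping1, the inhibitor of C1, stood at 4.46 and 6.43 CPM in dKO libraries, against 20.4 and 22.5 CPM in WT libraries (-1.98 ± 0.19, adjusted p = 0.000206).

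Housekeeping and cell cycle genes differed little in size. No S phase, G2/M, cholesterol synthesis, oxidative phosphorylation, stress response or histone variant gene was called with edgeR. In some lists many members nonetheless lay on the same side of 0. Over all genes tested, 21.8% were higher and 20.8% lower at an unadjusted p below 0.05, and 16.8% and 15% at an adjusted p below 0.05 without the fold threshold. Of 32 G2/M genes 31 lay below 0 with a median log2 fold change of -0.37, and 25 were lower and none higher at an unadjusted p below 0.05. Ccnb1, the gene of cyclin B1, stood at 84.9 and 72.2 CPM in dKO libraries, against 123 and 119 CPM in WT libraries (-0.62 ± 0.095, adjusted p = 0.00218). Of 24 cholesterol synthesis genes 20 were lower and none higher at an unadjusted p below 0.05, with a median of -0.31, and 2 were called with scaling to library size alone. Of 32 S phase genes 7 were higher and 6 lower at an unadjusted p below 0.05, with a median of 0.03. Of 81 genes of oxidative phosphorylation 8 were higher and 12 lower, of 26 stress response genes 8 and 4, and of 12 histone variant genes 1 and 7, all at an unadjusted p below 0.05. DESeq2 called 1 stress response gene and none of the other 5 lists. Without dKO replicate 1 a G2/M gene and a cholesterol synthesis gene were called lower (1 each), and without dKO replicate 2 or WT replicate 1 a stress response gene was called higher (1 each). Of 84 ribosomal protein genes 79 lay above 0 with a median of 0.26, 59 were higher at an adjusted p below 0.05 without the fold threshold, and 2 were called lower. Those 2 were Rpl39l, a variant form with a restricted expression, and Rps4l, which is annotated as a transcribed processed pseudogene. Rpl39l stood at 2.43 and 2.16 CPM in dKO libraries, against 9.05 and 8.55 CPM in WT libraries (-1.94 ± 0.14, adjusted p = 1.71e-05).

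**Figure D5:**
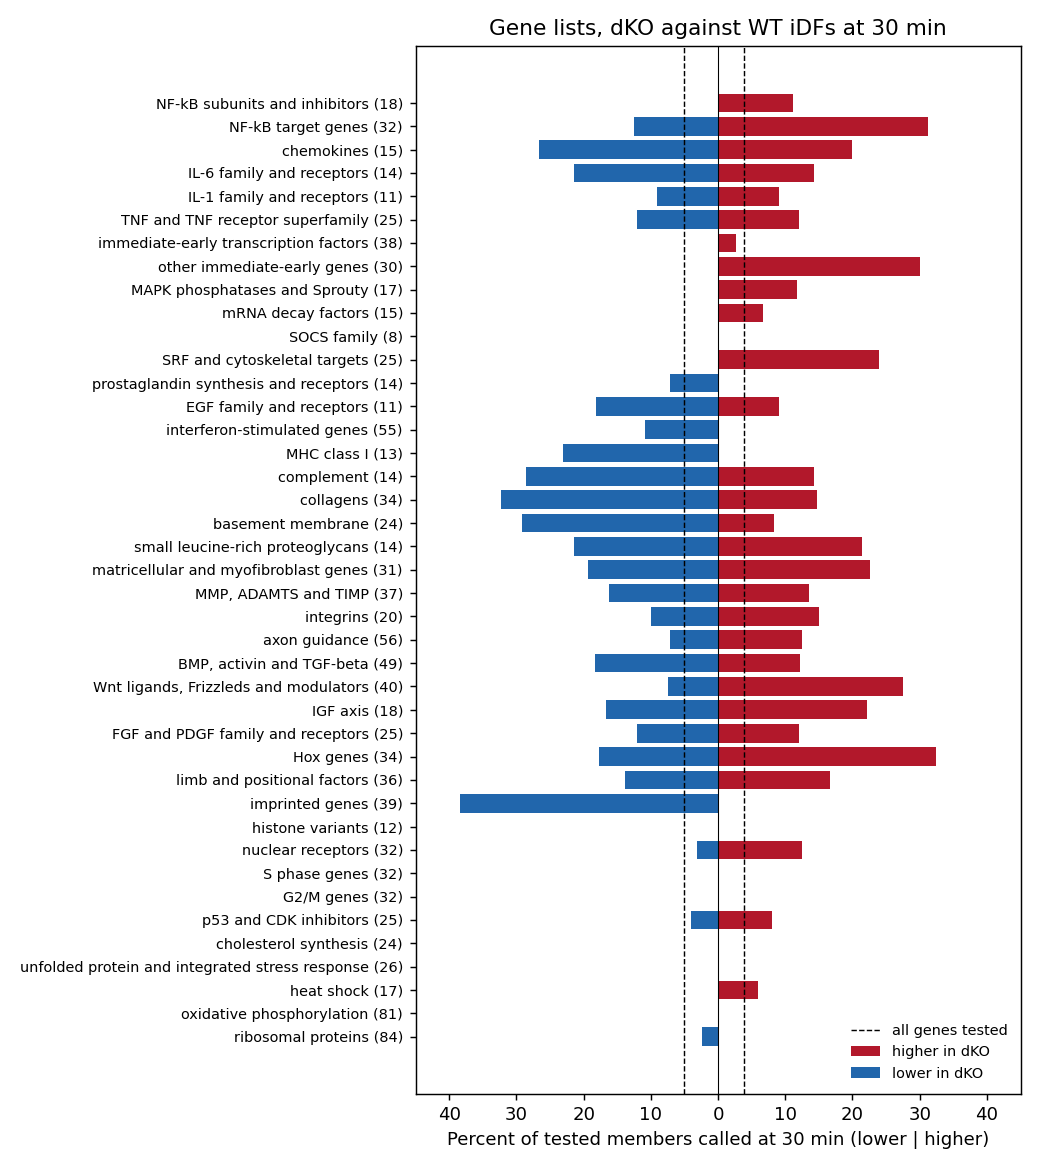
Percent of the tested members of each gene list (y axis, with the number tested in brackets) that were called at 30 min, to the right for genes higher in dKO iDFs (red) and to the left for genes lower (blue). The dashed lines mark the shares over all genes tested, 3.88% higher and 5.08% lower. SRF targets and immediate-early genes other than transcription factors are among the lists that extend only to the right. Wnt genes extend mainly to the right. Imprinted, MHC class I and interferon-stimulated genes are among the lists that extend only to the left, and Hox genes extend to both sides.

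Markers described the libraries as fibroblasts. Of 16 fibroblast markers, all tested, 3 were called, all of them lower in dKO cells (Fap, Lum and Dcn, 18.8%, against 5.08% of all genes), and the list's summed level was 17350 and 17890 TPM (abundance scaled by transcript length) in dKO libraries, against 17980 and 18130 TPM in WT libraries. The call of Dcn, the gene of decorin, was lost without any 1 of the 30 min libraries (adjusted p = 0.0541 to 0.0939). Of 17 leukocyte markers 3 passed the filter, with a sum over those 3 of 8.23 and 3.83 TPM in dKO libraries, against 9.88 and 7.83 TPM in WT libraries. The sums for the other cell types likewise cover only the members that passed the filter. Of 10 endothelial markers 5 passed, with 17.0 and 22.2 TPM in dKO libraries, against 7.55 and 6.51 TPM in WT libraries. That sum moved with Flt1, a receptor of VEGF, which stood at 58.96 and 71.01 CPM in dKO libraries, against 9.31 and 9.92 CPM in WT libraries (2.76 ± 0.12, adjusted p = 3.72e-06), while Kdr, another VEGF receptor, stood at 0.704 and 0.508 CPM in dKO libraries, against 1.11 and 1.24 CPM in WT libraries (-0.95 ± 0.31, adjusted p = 0.0466). Kdr lost its call without any 1 of the 8 libraries (adjusted p = 0.0639 to 0.221). Keratinocyte markers summed to 7.34 and 8.22 TPM in dKO libraries, against 7.31 and 10.6 TPM in WT libraries, and melanocyte and Schwann markers to 8.92 and 12.1 TPM in dKO libraries, against 11.3 and 9.29 TPM in WT libraries. Smooth muscle and pericyte markers summed to 3823 and 3471 TPM in dKO libraries, against 1933 and 1978 TPM in WT libraries. Most of this sum was Acta2, the smooth muscle actin that myofibroblasts also make, at 2850 and 2631 CPM in dKO libraries, against 1331 and 1380 CPM in WT libraries (1.02 ± 0.17, adjusted p = 0.00898). It lost its call without dKO replicate 1 (0.96, adjusted p = 0.0575), without WT replicate 1 (0.99, 0.0582) or without WT replicate 2 (1.04, 0.0501). Among markers of dermal layers, 4 of 13 were higher and 4 lower (30.8% each, against 3.88% and 5.08% of all genes). Crabp1, which encodes a retinoic acid carrier, stood at 177 and 179.5 CPM in dKO libraries, against 383 and 403 CPM in WT libraries (-1.14 ± 0.046, adjusted p = 7.32e-07), and the surface marker gene Ly6c1 stood at 6.34 and 7.83 CPM in dKO libraries, against 1.71 and 1.55 CPM in WT libraries (2.12 ± 0.18, adjusted p = 4.17e-05).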

How the data were processed

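RNA was read as polyadenylated, strand-marked 75-base single-end libraries. The authors quantified them with Salmon 1.2.1 on mouse transcripts (GRCm38.p6) and deposited an estimated count (NumReads) and TPM per transcript and sample. Gencode release M21, the annotation used here, placed 139791 of 140992 transcripts (99.15%) in genes, over which the estimated counts were added up and rounded to whole numbers. Transcripts with no gene held 0.311 to 0.344% of the estimated counts and were left out. The deposited TPM values, which are scaled by transcript length, were summed per gene and used for marker lists only.

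Genes with low counts were removed (filterByExpr, minimum count 10, minimum total 15). The 8 iDF libraries were fitted as 4 group means with TMM factors and a robust quasi-likelihood fit in edgeR 4.0.16 (R 4.3.3), with 4 residual degrees of freedom and a biological coefficient of variation of 0.0678. P-values were adjusted by the Benjamini-Hochberg method over the 15047 genes tested, and a call needed an adjusted p below 0.05 with a log2 fold change beyond 0.75 either way. DESeq2 1.42.0, other scalings and filters, a length offset, the replicate number as a block and the removal of each library were tried as alternatives. Promoters came from RefSeq (GRCm38.p6), in which 10522 of the tested gene symbols had an entry.

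The members and the 50 gene lists were chosen with earlier results of these data known. Named genes were the 2 targeted genes, genes the study names for cultured fibroblasts, the 12 protein-coding genes with the largest change in each direction (average log2 CPM of at least 3, groups apart), called interaction genes, and up to 4 called members of every list, by smallest p. Some genes that this rule names are not reported here. Ccl7, Mmp13, Rela, Edn1, Rgs2, Col1a1, Hoxc12 and Hoxc13, among others, were chosen after their values were seen. Counting error is small at 22560402 or more reads in genes per library, and replicates differed by more than it (chi-square per degree of freedom of 3.967 to 12.24).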

Additional observations from a re-analysis of the deposited data

Results flagged for a closer look

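The difference between dKO and WT iDFs was itself different after serum for 2 genes, in that the interaction of genotype and serum passed the test. For Nfkbia the log2 difference of dKO over WT was larger at 30 min than at 0 min by 1.38 (edgeR, adjusted p = 0.000112), and both dKO libraries were above both WT libraries at each time. For Gm2446, an unprocessed pseudogene on the same strand of chromosome 12 and 263 kb from Nfkbia, the signed difference was larger by 10.16 (adjusted p = 0.00262). Gm2446 had 5.32 and 4.36 CPM in dKO and 3.33 and 4.81 CPM in WT libraries at 30 min, and 0 and 0 CPM in dKO and 4.67 and 4.69 CPM in WT libraries at 0 min. The genotypes overlapped at 30 min, and the value of 10.16 is not a bound, because it rests on libraries without counts.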

How the results depend on the processing

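The counts at 30 min (584 higher, 764 lower) stayed within 1.5 times under all alternatives except removal of the fold threshold, which gave 2524 and 2257 at 30 min and 2440 and 2289 at 0 min. They were 501 and 537 with DESeq2, 500 and 928 with library size alone, 517 and 593 with a length offset, and 541 and 685 with only the 4 libraries at 30 min. Without 1 library 491 to 580 were higher and 599 to 757 lower at 30 min, and 490 to 616 and 593 to 790 at 0 min. Interaction calls above 0 (2) became 5 with DESeq2, 5 with no low-count filter, 1 with protein-coding genes alone and 2 to 4 without 1 library, and those below 0 (0) became 2, 2, 0 and 0 to 3. The replicate block gave 625 higher and 812 lower at 30 min, 5 interaction calls above 0 and 1 below. Over all genes tested, correlations of same-numbered samples were 0.0181 to 0.132, and the main fit did not take the numbers as pairs. That check cannot decide the matter for serum-responsive genes, which are a small part of all genes. Over both immediate-early lists the genotypes gave the same replicate order for 97.1% of genes, against 61.8% of all genes. With the block 1 named gene (Ccl2) gained its call and 2 lost it. Of 162 named genes, 151 kept direction and call with DESeq2, 149 with a length offset and 159 with the replicate block, while 24 lost the call without at least 1 library. 2 signs turned: Itga9 with a length offset (0.41) and Fos without dKO 30 min replicate 1 (-0.20, with values up to 1.33 without WT 30 min replicate 1). The causes were not tested. Where 1 library of a group was removed, the lone sample was assumed to vary like the other groups.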
